A study of Rattus norvegicus with 6 samples.

Results

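The genes examined were those of the glucocorticoid receptor, of the related mineralocorticoid receptor, of the enzyme that regenerates active glucocorticoid inside cells, and of a small group of genes that glucocorticoids are known to induce. Members were chosen by gene symbol from a list of 8: Nr3c1, Nr3c2, Hsd11b1, Fkbp5, Tsc22d3, Zbtb16, Sgk1 and Errfi1-AS1. Of these, 6 had a row under that symbol among the 28293 genes of the table (30452 rows before rows of 1 symbol were summed), and Tsc22d3 and Errfi1-AS1 were not analysed here. All 6 were among the 10942 genes that were tested.

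RNA was sequenced from 3 sham samples and 3 samples with myocardial ischemia/reperfusion injury (MI/RI) of rat myocardium, all from male rats labelled wild type. In the MI/RI group the left anterior descending coronary artery was tied for 30 min under anesthesia and ventilation, with the chest opened on the left side, and the heart was taken after 6 h of reperfusion. The labels write the same 30 min and 6 h for the sham rats and do not describe the sham operation, and no group without surgery is among these samples. The labels do not say which piece of the heart was taken, and they do not say whether each sample was 1 rat. The p-values below therefore measure the spread between these samples.

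Glucocorticoids such as corticosterone, the main glucocorticoid of the rat, are released by the adrenal gland under stress, including surgery. Inside the cell they bind the glucocorticoid receptor, which is held ready by a chaperone complex built on Hsp90, then moves to the nucleus and binds DNA, where it induces some genes and represses many inflammatory ones. In cardiomyocytes the mineralocorticoid receptor can also bind these hormones, since the enzyme that inactivates them in the kidney is scarce there.

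Values were FPKM, that is fragments scaled to the length of the gene and to the size of the library, so that levels can be compared between genes. Differences are log2 fold changes of MI/RI against sham on the log2(FPKM + 0.1) scale, with the standard error (SE) of limma and its p adjusted over all 10942 genes by the Benjamini-Hochberg method. A gene is said to have risen or fallen where that adjusted p was under 0.05. The smallest p of the exact permutation test with 3 samples against 3 was 0.1.

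The MI/RI libraries differed from the sham libraries as a whole. Over all genes tested, the median log2 fold change was 0.29, 25.5% of genes rose and 7.36% fell (32.9% in either direction). The 13 mitochondrially encoded mRNAs took 80.1% to 86.2% of the summed FPKM in sham samples and 61.8% to 71.5% in MI/RI samples. Cardiomyocyte markers, which identify the tissue as myocardium, were abundant in every sample, yet their summed FPKM ran from 3219 to 10510 in sham and from 21170 to 30371 in MI/RI, and 5 of the 6 with a row rose. Among neutrophil and monocyte markers 4 of 6 tested rose (summed FPKM 51.41 to 67.28 in sham and 79.51 to 146.6 in MI/RI) and 2 of 7 fibroblast markers rose (Tcf21 by 1.42 and Col1a1 by 0.91, summed FPKM 413.5 to 572.5 and 590.9 to 655.7), whereas none of 7 endothelial and none of 6 pan-leukocyte markers passed the threshold. Whether these shifts had a part in the differences below was not tested, and in whole tissue fewer cells of a type and less RNA per cell cannot be told apart.

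Of the 6 members measured, 1 rose (Zbtb16) and none fell, against 25.5% and 7.36% of all genes tested. In 4 of the 6 (Nr3c2, Fkbp5, Zbtb16 and Sgk1) every MI/RI sample lay above every sham sample. Such a separation was seen in 37.2% of all genes tested, and the opposite one in 13% of them and in none of the members. With so few members, and with choices made after results of these data were known, the counts describe these genes and are no test of the group.

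**Figure D1:**
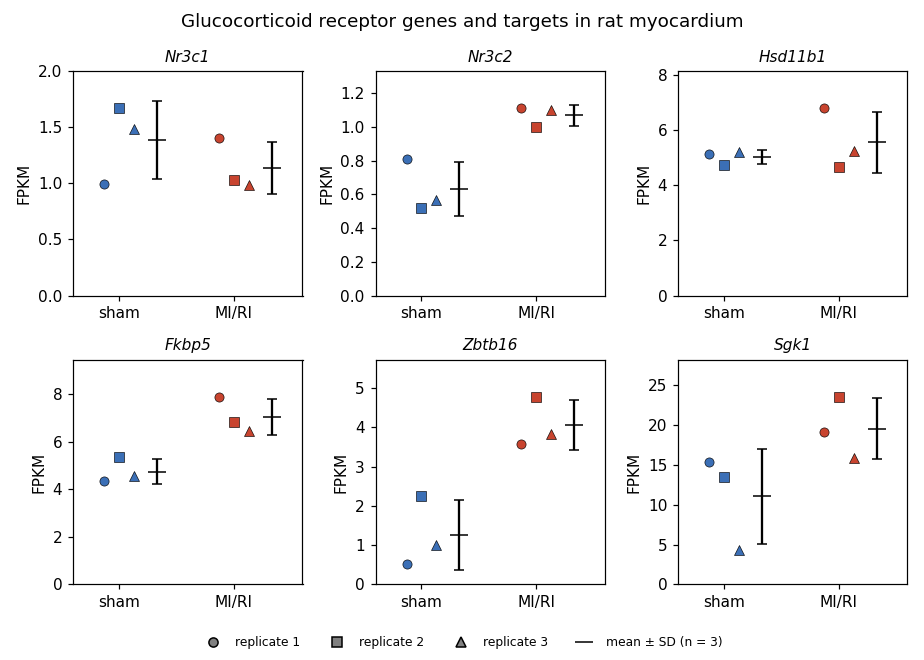
FPKM of the 6 measured members in each of the 3 sham (blue) and 3 MI/RI (red) samples, with symbols for the replicate numbers and bars for mean ± SD. The groups overlap for Nr3c1 and Hsd11b1 and are apart for the other 4 genes, and sham replicate 3 lies far below the other sham samples for Sgk1.

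Neither receptor mRNA passed the test. Nr3c1 (ENSRNOG00000014096), which encodes the glucocorticoid receptor, had 0.995, 1.67 and 1.48 FPKM in the sham group and 1.40, 1.03 and 0.981 FPKM in the MI/RI group, given here and below in the order of replicates 1, 2 and 3. The groups overlapped, because sham replicate 1 was as low as the lowest MI/RI samples and MI/RI replicate 1 was close to the higher sham samples. The mean was 1.38 ± 0.347 FPKM in sham and 1.14 ± 0.230 in MI/RI (SD, n = 3 each), and the log2 fold change of −0.25 (SE 0.28) did not pass the test (adjusted p = 0.53, 95% interval −0.87 to 0.38). The size of this difference depended on the scaling, and it passed under none. It was −0.98 (adjusted p = 0.055) when libraries were rescaled without mitochondrially encoded mRNAs and −0.49 (adjusted p = 0.11) after median centring. After quantile normalization it was −0.32 (adjusted p = 0.28). On the TPM scale, where each library sums to the same total, it was only −0.06 (adjusted p = 0.89).

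Nr3c2 (ENSRNOG00000034007), the gene of the mineralocorticoid receptor, measured 0.812, 0.517 and 0.566 FPKM in sham and 1.11, 0.997 and 1.10 in MI/RI. All 3 MI/RI samples were higher than all sham samples and lay close together. Means were 0.632 ± 0.158 and 1.07 ± 0.0622 FPKM, and the log2 fold change of 0.70 (SE 0.29) missed the threshold (adjusted p = 0.091, 95% interval 0.05 to 1.34). After rescaling of each library without its mitochondrially encoded mRNAs this difference was gone (log2 fold change −0.00043). Under the other scalings it stayed positive without passing. It was 0.88 on the TPM scale (adjusted p = 0.053), 0.68 after quantile normalization (adjusted p = 0.11) and 0.45 after median centring (adjusted p = 0.24).

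A ratio of both receptors within 1 library does not change when all its values are multiplied by 1 factor. Quantile normalization is no such factor and can change it. Nr3c2 over Nr3c1 was 0.816, 0.310 and 0.383 in sham and 0.792, 0.967 and 1.12 in MI/RI. The MI/RI ratios lay near 1 whereas 2 of the 3 sham ratios were far lower, but sham replicate 1 fell among the MI/RI values. The mean difference was 1.05 on the log2 scale (exact permutation test, two-sided, p = 0.2, adjusted 0.24 over 6 ratios).

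No difference was detected in the ligand-supplying enzyme. Hsd11b1 (ENSRNOG00000005861) encodes the reductase that turns inert 11-keto glucocorticoids back into active ones. It measured 5.12, 4.73 and 5.19 FPKM in sham and 6.79, 4.65 and 5.25 in MI/RI. The groups overlapped, with MI/RI replicate 1 above the sham range, MI/RI replicate 3 just above it and MI/RI replicate 2 just below it, and the sham samples agreed to a coefficient of variation of 4.96%, the narrowest of the members. The log2 fold change was 0.13 (SE 0.22, adjusted p = 0.68), the 95% interval ran from −0.37 to 0.63, and the sign turned under 3 of the 4 other scalings.

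Of the other genes of corticosteroid supply and export, 9 of 10 had a row, 3 passed the filter on low values and 1 rose, against 25.5% of all genes tested. Cyp11b1 and Cyp11b2, which carry out the last steps of glucocorticoid and aldosterone synthesis in the adrenal cortex, and Serpina6, which encodes the corticosteroid-binding globulin of plasma, were listed at 0 in all 6 samples. Hsd11b2, the inactivating enzyme, lay between 0 and 0.163 FPKM (0 to 12 fragments a sample) and was too low to test. H6pd, whose product supplies the reductase with NADPH, measured 1.29, 1.25 and 0.642 FPKM in sham and 1.64, 1.37 and 1.67 in MI/RI (log2 fold change 0.57, adjusted p = 0.17).

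The 1 gene of this group that rose was Cyp11a1, which encodes the side-chain cleavage enzyme that opens steroid synthesis. Its values were 0.602, 0.530 and 0.339 FPKM in sham and 7.47, 1.92 and 1.09 in MI/RI. Every MI/RI sample was above the sham range, and MI/RI replicate 1 stood far above the other 2. The sham mean was 0.49 FPKM, so Cyp11a1 passed the filter at 0.5 only through its MI/RI values. The log2 fold change was 2.18 (adjusted p = 0.018) with all samples and 1.42 without MI/RI replicate 1, and the call was lost when sham replicate 2 (adjusted p = 0.061) or sham replicate 3 (0.058) was left out.

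Fkbp5 (ENSRNOG00000022523) encodes the immunophilin FKBP51, a co-chaperone that lowers the hormone affinity of the receptor complex and is itself a receptor target. It measured 4.34, 5.35 and 4.57 FPKM in sham and 7.89, 6.84 and 6.45 in MI/RI. The groups were apart, with a coefficient of variation of 11.2% in sham and 10.6% in MI/RI. Means of 4.75 ± 0.534 and 7.06 ± 0.748 FPKM gave a log2 fold change of 0.56 (SE 0.21, 95% interval 0.08 to 1.04), whose adjusted p of 0.069 missed the threshold. The unadjusted p of limma was 0.026, and 36.6% of all genes tested had a larger positive difference.

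The call for Fkbp5 rested on the scaling. On the TPM scale, where each library sums to the same total, the log2 fold change was 0.76 and passed (adjusted p = 0.041). When libraries were rescaled without mitochondrially encoded mRNAs it was −0.21 (adjusted p = 0.57), although Fkbp5 then still lay 0.25 above the median of all genes, against 0.27 above it on the deposited scale. Relative to Nr3c1 in the same library, Fkbp5 was 4.36, 3.21 and 3.09 in sham and 5.63, 6.63 and 6.57 in MI/RI, without overlap (log2 difference 0.84, exact permutation test, two-sided, p = 0.1, adjusted 0.2).

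Zbtb16 (ENSRNOG00000029980) encodes the zinc-finger transcription factor PLZF and is strongly induced by glucocorticoids in many cell types. It measured 0.528, 2.24 and 1.01 FPKM in sham and 3.56, 4.77 and 3.84 in MI/RI. All MI/RI samples were above all sham samples. The sham values were widely spread (coefficient of variation 70%, against 15.6% in MI/RI), and sham replicate 1 rested on 52 fragments, the fewest behind any member in any sample.

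Zbtb16 had the largest log2 fold change of the members, 1.81 (SE 0.41, 95% interval 0.89 to 2.73, adjusted p = 0.01), or 3.5-fold. Of all genes tested, 5.14% rose more. Leaving out each sample in turn gave 1.36 to 2.30, and the adjusted p stayed at or below 0.035. After rescaling without mitochondrially encoded mRNAs the log2 fold change was 1.06 (adjusted p = 0.085), still 1.52 above the median of all genes, which is its distance on the deposited scale too. As a ratio to Nr3c1, Zbtb16 was 0.531, 1.34 and 0.683 in sham and 2.54, 4.63 and 3.91 in MI/RI (log2 difference 2.19, exact permutation test, two-sided, p = 0.1).

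Sgk1 (ENSRNOG00000011815) encodes a kinase induced by both corticosteroid receptors that raises the surface level of ion channels and transporters. It was the most abundant member on average, with 15.4, 13.5 and 4.28 FPKM in sham and 19.1, 23.5 and 15.9 in MI/RI. The groups did not overlap, but sham replicate 1 lay just under MI/RI replicate 3, and the group difference rested largely on sham replicate 3. The log2 fold change of 0.99 (SE 0.43, 95% interval 0.03 to 1.96) missed the threshold (adjusted p = 0.1), and without sham replicate 3 it was 0.42 (adjusted p = 0.32).

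With the replicate number as a block, which compares same-numbered samples, the log2 fold change of Sgk1 stayed at 0.99 and passed (adjusted p = 0.023), so that 2 members rose in that fit. No pairing of the samples is stated in the sources used here. Without the block Sgk1 passed under no scaling. It was 0.21 (adjusted p = 0.66) when rescaled without mitochondrially encoded mRNAs and 0.33 (adjusted p = 0.61) after quantile normalization. The ratio of Sgk1 to Nr3c1 overlapped between groups, with 15.5, 8.09 and 2.89 in sham and 13.7, 22.8 and 16.2 in MI/RI (log2 difference 1.27, exact permutation test, two-sided, p = 0.2).

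**Figure D2:**
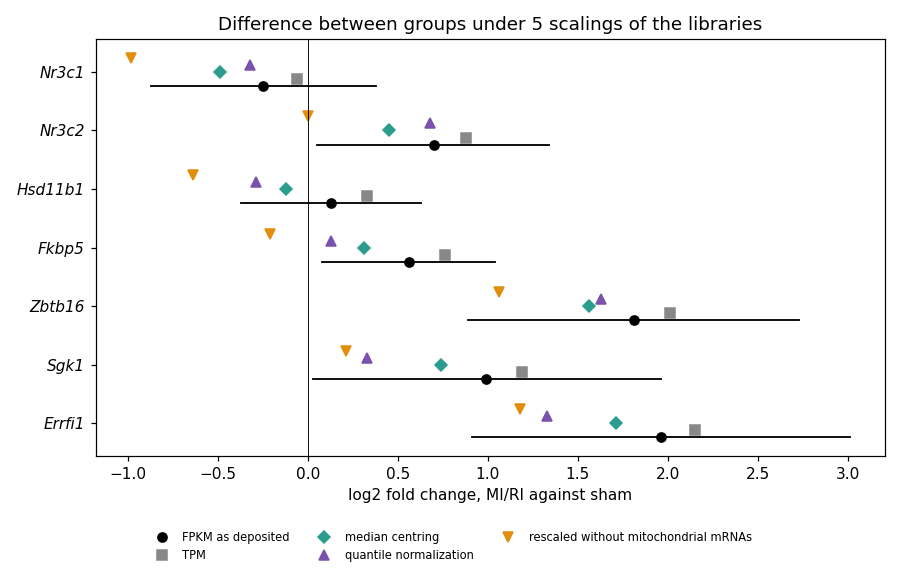
Log2 fold change of MI/RI against sham for the 6 measured members and Errfi1 under 5 scalings of the libraries, with the 95% interval of limma as a black line on the deposited scale. Zbtb16, Sgk1 and Errfi1 are above 0 under every scaling shown, whereas Hsd11b1 and Fkbp5 lie on both sides of 0 and Nr3c1 is below 0 throughout.

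Errfi1 (ENSRNOG00000058186), a feedback inhibitor of the EGF receptor family and a known glucocorticoid target, is the sense partner of the listed antisense gene Errfi1-AS1. It measured 9.91, 9.16 and 2.34 FPKM in sham and 25.9, 24.4 and 20.7 in MI/RI. The groups were well apart, and sham replicate 3 was again the lowest sample. Errfi1 rose by 1.96 on the log2 scale (SE 0.47, adjusted p = 0.013), and by 1.30 (adjusted p = 0.016) without sham replicate 3. The library kit was stranded, but the strand setting used for counting is not given in the sources used here, so reads of Errfi1 and of an antisense transcript cannot be told apart.

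In order of level, the sham means ran from Sgk1 (11.1 FPKM) through Hsd11b1 (5.02), Fkbp5 (4.75), Nr3c1 (1.38) and Zbtb16 (1.26) to Nr3c2 (0.632). Neighbours in that order overlapped in their sample ranges except Fkbp5 and Nr3c1. In MI/RI the order was Sgk1 (19.5), Fkbp5 (7.06), Hsd11b1 (5.57), Zbtb16 (4.06), Nr3c1 (1.14) and Nr3c2 (1.07). There, Sgk1 was apart from Fkbp5 and Zbtb16 from Nr3c1, while the other neighbours overlapped. Fkbp5 was above Hsd11b1 in all 3 MI/RI samples and in 1 of the 3 sham samples.

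The promoter regions of Sgk1, Errfi1 and Fkbp5 are shown as examples, picked after the drop in sham replicate 3 described next was seen. Sgk1 and Errfi1 shared that drop and Fkbp5 did not. Windows of the other genes with or without the drop were not compared, and a link between promoter letters and the drop was not tested. Each is the 300-base window of RefSeq from 250 bases before to 50 bases after an annotated start, on the rat build GRCr8, written 5′ to 3′ on the strand of the gene, with the letters TATAAA in capitals. The build used for the deposited values is not given in the sources used here. The table held windows for 4 of the 8 members (Nr3c1, Fkbp5, Sgk1 and Tsc22d3) and for Errfi1.
Sgk1, chr1:24804782-24805081, minus strand: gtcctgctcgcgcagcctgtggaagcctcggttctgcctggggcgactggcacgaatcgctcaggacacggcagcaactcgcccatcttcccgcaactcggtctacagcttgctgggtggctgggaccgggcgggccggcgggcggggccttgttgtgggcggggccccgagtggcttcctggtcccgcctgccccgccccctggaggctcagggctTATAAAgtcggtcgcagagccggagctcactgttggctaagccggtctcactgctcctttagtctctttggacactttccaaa
Errfi1, chr5:166606591-166606890, plus strand: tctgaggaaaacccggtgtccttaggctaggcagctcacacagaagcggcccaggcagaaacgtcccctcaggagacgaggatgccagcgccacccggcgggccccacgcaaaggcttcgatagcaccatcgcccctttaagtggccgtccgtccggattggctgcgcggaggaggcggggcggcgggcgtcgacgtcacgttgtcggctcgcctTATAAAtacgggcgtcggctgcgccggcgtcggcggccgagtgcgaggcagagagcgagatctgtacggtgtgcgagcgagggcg
Fkbp5, chr20:6543506-6543805, minus strand: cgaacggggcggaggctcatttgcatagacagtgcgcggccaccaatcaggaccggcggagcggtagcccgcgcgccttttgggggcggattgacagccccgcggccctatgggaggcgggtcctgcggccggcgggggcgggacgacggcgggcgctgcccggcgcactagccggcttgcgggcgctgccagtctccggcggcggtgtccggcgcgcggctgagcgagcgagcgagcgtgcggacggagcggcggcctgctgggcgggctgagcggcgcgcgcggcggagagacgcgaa

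TATAAA began 33 bases before the start in the Sgk1 window and 35 bases before it in the Errfi1 window, and was not in the Fkbp5 window; 8.8% of all 33469 windows held it on the strand of the gene. A second of the 3 annotated Sgk1 windows held it as well, 55 bases before the start, and the remaining Sgk1 window did not. A window of Tsc22d3, which was not analysed here, held it 44 bases before the start. The G and C content was 66% for the Sgk1 window, 67.3% for Errfi1 and 77% for Fkbp5, against a median of 51.7% over all windows. The hexamer that forms each side of the glucocorticoid response element, TGTTCT or AGAACA on either strand, was in 20.7% of all windows and in none of the 10 windows of these genes. The full palindrome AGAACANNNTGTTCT, which contains 2 hexamers, was in 0.015% of all windows. The absence of a match says only that these letters are not in these 300 bases.

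Among genes that glucocorticoids are known to induce, sham replicate 3 stood apart. Over the 24 such genes that were tested (21 of the list and the members Fkbp5, Zbtb16 and Sgk1), summed FPKM was 402.3, 423.8 and 155.9 in sham and 847.5, 837.3 and 960.1 in MI/RI. Abundant genes weigh most in this sum, such as Pdk4 (95.2, 126.4 and 38.4 in sham) and Mt2A (mean 6.93 in sham and 233.2 in MI/RI). Sham replicate 3 was the lowest sham sample for 20 of the 24 (83.3%), against 44.3% of all genes tested. For 13 of the 24 it was below 50% of the lower of the other sham samples, against 1.99% of all genes tested. One of the 13 was Mt1, which was listed at 0 in sham replicate 3 and rested on 2 fragments in sham replicate 2.

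Among these 24 genes, singled out after their values were seen, the lower of the other sham samples was 9.55-fold above sham replicate 3 for the cell cycle inhibitor Cdkn1a, 3.97-fold for the NF-kappaB inhibitor Nfkbia, 3.91-fold for Errfi1 and 3.15-fold for Sgk1. It was 3.05-fold above for Cebpd, 2.97-fold for the clock gene Per1, 2.71-fold for Ddit4, 2.48-fold for the metabolic kinase gene Pdk4 and 2.13-fold for Klf9. Fkbp5 and Zbtb16 did not share this drop, as their lowest sham sample was replicate 1, and neither did Angptl4 and Bcl6. In relative depth and mitochondrial share, sham replicate 3 was close to sham replicate 2 (1.14 and 1.18 times the depth of sham replicate 1, and 86.2% and 85.1%).

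The low sham sample widened the sham spread of these genes and raised their fold changes. Without it the log2 fold change went from 1.16 to 0.63 for Per1, from 0.95 to 0.27 for Nfkbia, from 1.61 to 0.52 for Cdkn1a and from 0.57 to 0.17 for Klf9, none of which passed in either fit. With the replicate block and all samples, Per1 (adjusted p = 0.011) and Cdkn1a (adjusted p = 0.019) passed, while Nfkbia (0.054) and Klf9 (0.13) did not. Ddit4 passed in the other direction without sham replicate 3 (log2 fold change −1.13, adjusted p = 0.028), against −0.60 (adjusted p = 0.29) with all samples.

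**Figure D3:**
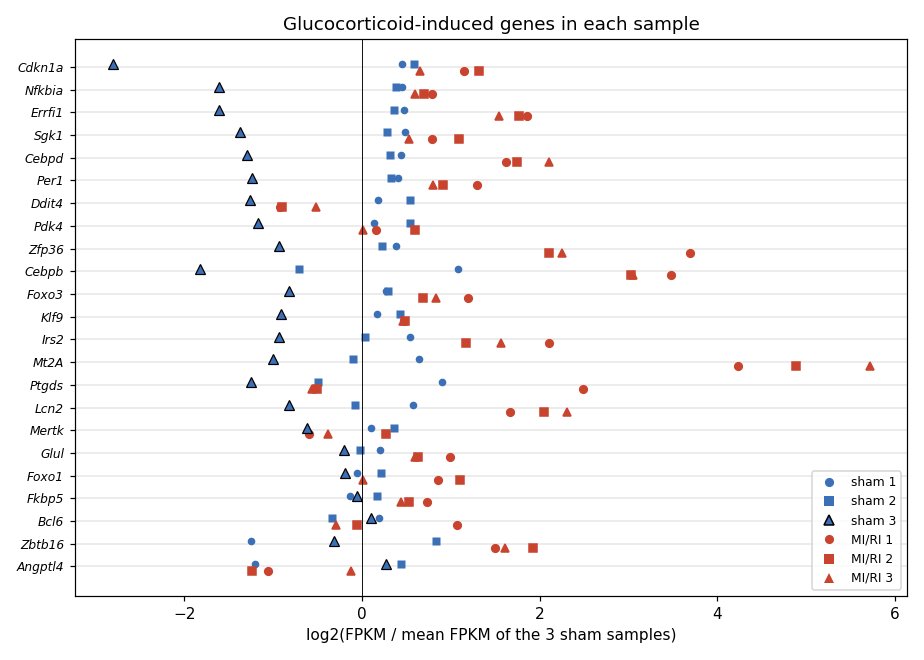
Log2 ratio of FPKM in each sample to the mean of the 3 sham samples for 23 of the 24 tested glucocorticoid-induced genes (Mt1, at 0 in sham replicate 3, is left out), ordered by the drop in sham replicate 3 (black-edged triangles). Sham replicate 3 lies well to the left of the other sham samples for genes such as Cdkn1a, Nfkbia, Errfi1 and Sgk1, and among or near them for Fkbp5, Bcl6, Zbtb16 and Angptl4.

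Of the 24 listed glucocorticoid-induced genes other than the members, 23 had a row and 21 were tested. Of these, 9 rose and none fell, against 25.5% of all genes that rose, and the median log2 fold change was 0.95, against 0.29 for all genes. The median was 0.58 without sham replicate 3 (8 rose and 1 fell), 0.56 after quantile normalization (6 rose and 1 fell) and 0.18 when rescaled without mitochondrially encoded mRNAs (7 rose and 2 fell). Errfi1 is among the 9. The largest rises were in Mt2A, a metallothionein (5.07, adjusted p = 0.00043), in Cebpb, a transcription factor of the acute phase response (3.65, adjusted p = 0.0035), and in the metallothionein Mt1 (2.92, adjusted p = 0.012, and 0.054 without sham replicate 2). Mt1 averaged 0.29 FPKM in sham and passed the filter at 0.5 only through its MI/RI values. Its rise was thus tied to its being tested. Whether the related genes Mt1 and Mt2A shared reads was not tested, so their values may be uncertain singly. The other 5 were Zfp36, Lcn2, Cebpd, Irs2 and Glul, and of the 9 the sign turned under another scaling only for Glul, which encodes glutamine synthetase (0.74 as deposited, −0.04 when rescaled without mitochondrially encoded mRNAs and −0.11 after quantile normalization, and not called without sham replicate 3, adjusted p = 0.13). Most of the 9 are also induced by inflammatory signals.

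The 12 genes of the list that did not pass included several that are often read as glucocorticoid targets. Per1 measured 10.4, 9.92 and 3.34 FPKM in sham and 19.4, 14.9 and 13.8 in MI/RI, without overlap (adjusted p = 0.051, and 0.011 with the replicate block, under which 12 rather than 9 genes of the list rose). Klf9 measured 8.12, 9.67 and 3.82 FPKM in sham and 9.97, 10.1 and 9.88 in MI/RI, so that sham replicate 2 came close to the MI/RI samples. Pdk4 overlapped, with 95.2, 126.4 and 38.4 FPKM in sham and 96.4, 131 and 87.5 in MI/RI. Tat, a liver enzyme gene, was below 0.05 FPKM in every sample.

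Of 15 genes of the complex and its coregulators 14 were tested, 6 rose and none fell, against 25.5% and 7.36% of all genes tested. Their median was 0.45. Only 3 rose without sham replicate 3, 2 rose and 1 fell after quantile normalization (median −0.05), and 2 rose and 4 fell when rescaled without mitochondrially encoded mRNAs (median −0.33). Fkbp4, which encodes FKBP52, the co-chaperone that opposes FKBP51 in the complex, measured 13.5, 10.3 and 9.67 FPKM in sham and 60.8, 35.7 and 41.2 in MI/RI. The groups were far apart, and the log2 fold change of 2.01 (SE 0.27, adjusted p = 0.0024) held its call under all 4 other scalings and with each sample left out. Stip1, which passes clients from Hsp70 to Hsp90, rose by 1.45 (adjusted p = 0.0041) and Hspa8, the constitutive Hsp70, by 1.29 (adjusted p = 0.0048), a call that Hspa8 lost when rescaled without mitochondrially encoded mRNAs (adjusted p = 0.13) and after quantile normalization (adjusted p = 0.36). Hsp90aa1 and Bag1 rose too, and each lost its call in at least 1 fit that left out a sample (highest adjusted p 0.079 and 0.063). Both also lost it when rescaled without mitochondrially encoded mRNAs (adjusted p = 0.45 and 0.21) and after quantile normalization (adjusted p = 0.53 and 0.42). Of the 4 other scalings, Hsp90aa1 kept its call under 1 and Bag1 under 2. These chaperones serve many clients besides the steroid receptors.

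The ratio of Fkbp4 to Fkbp5 was 3.12, 1.92 and 2.12 in sham and 7.70, 5.23 and 6.38 in MI/RI. Every MI/RI ratio was above every sham ratio, and the mean log2 difference was 1.45 (exact permutation test, two-sided, p = 0.1, the smallest this design gives, adjusted 0.2 over 6 ratios).

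**Figure D4:**
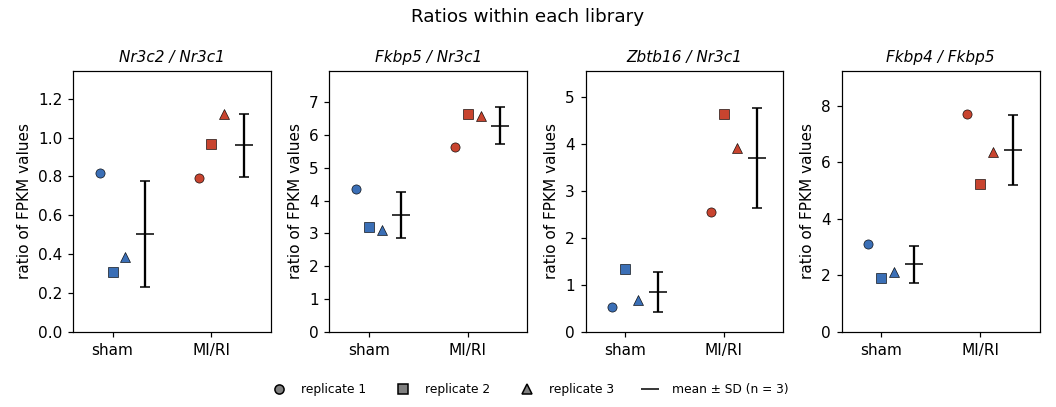
Ratios of FPKM within each library for Nr3c2 to Nr3c1, Fkbp5 to Nr3c1, Zbtb16 to Nr3c1 and Fkbp4 to Fkbp5 in 3 sham and 3 MI/RI samples, with mean ± SD. The groups overlap for the receptor ratio, where sham replicate 1 lies at 0.816, and are apart for the other 3 ratios.

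Among the coactivators, Crebbp and Ep300, histone acetyltransferases named here after their values were seen, were lower in every MI/RI sample than in any sham sample (Crebbp 1.48, 2.10 and 1.83 FPKM against 1.18, 1.07 and 1.10), with log2 fold changes of −0.63 (adjusted p = 0.067) and −0.52 (adjusted p = 0.15) that missed the threshold. After rescaling without mitochondrially encoded mRNAs 4 genes of this list fell, these 2 with Ncor1 and Ppid. Ncoa1, a steroid receptor coactivator, was level, at 1.73 to 2.02 FPKM in sham and 1.85 to 2.16 in MI/RI.

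Of 11 inflammatory genes that glucocorticoids are known to repress, 8 were tested and all 8 rose, against 25.5% of all genes tested. The median of the 8 was 3.09. Il6, Sele and Nos2 averaged 0.00967, 0.189 and 0.33 FPKM in sham and passed the filter at 0.5 only through their MI/RI values. A rise of these genes was thus tied to their being tested, and the count is no test of the list. Tnf, too low to test, averaged 0.420 FPKM in both groups, which overlapped. The chemokine gene Cxcl1 went from 0.540 to 0.976 FPKM in sham to 56.0 to 102.1 in MI/RI (log2 fold change 6.73, adjusted p = 1.2e-05). Il6 was listed at 0 in sham replicates 2 and 3 and at 0.0290 FPKM in sham replicate 1 (3 fragments), and measured 5.12, 6.12 and 8.60 in MI/RI (log2 fold change 5.91). Ccl2 rose by 5.56 (adjusted p = 0.00072). The 8 calls held under all 4 other scalings.

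Of 13 mineralocorticoid targets and partners of Sgk1, 12 had a row, 7 were tested and 3 rose, against 25.5% of all genes tested. Their median was 0.46. Atp1b1, which encodes a subunit of the sodium pump, rose by 2.21 (adjusted p = 0.0035). Nedd4l, a ubiquitin ligase that Sgk1 phosphorylates, was at the threshold (0.75, adjusted p = 0.05 as rounded) and lost its call with the replicate block (adjusted p = 0.055) and with each sample left out (at most 0.16), and its difference was 0.01 when rescaled without mitochondrially encoded mRNAs. The epithelial sodium channel genes Scnn1a, Scnn1b and Scnn1g reached at most 0.211, 0.133 and 0.0549 FPKM in any sample, and the sodium exchanger gene Slc9a3 stayed below 0.05 FPKM. Ndrg1, whose product is a common readout of Sgk1 activity at the protein level, was 9.44 to 17.2 FPKM in sham and 10.01 to 13.36 in MI/RI (log2 fold change −0.18, adjusted p = 0.63).

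Among 12 relatives of the members, 5 were tested and 2 rose, Fkbp4 and Tsc22d4, against 25.5% of all genes tested. Tsc22d4, a leucine-zipper relative of Tsc22d3, rose by 2.23 (adjusted p = 0.0037) and kept its call under all 4 other scalings, whereas Tsc22d1 (0.49, adjusted p = 0.1) and Tsc22d2 (0.17, adjusted p = 0.65) did not pass. The steroid receptor genes Esr1, Esr2 and Pgr, and the kinase gene Sgk2, were below 0.05 FPKM in every sample. Over all 6 lists, each gene taken once, 57 of 84 genes were tested, 28 rose and none fell. Among all genes tested, 25.5% rose and 7.36% fell. When rescaled without mitochondrially encoded mRNAs, 21 of the list genes rose and 7 fell.

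The genes whose pattern over the 6 samples was most like that of Nr3c1 were Fbh1 (Pearson r = 0.996), Suz12 (0.987) and Klhl7 (0.987), and those most like Fkbp5 were Bag5 (0.999), Nde1 (0.998) and Ilf2 (0.998). Bag5 measured 2.18, 2.90 and 2.37 FPKM in sham and 5.12, 4.14 and 3.98 in MI/RI. These correlations are a description over 6 samples that share 2 groups and their library sizes, picked from 10942 genes.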

How the data were processed

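RNA of 3 sham and 3 MI/RI samples was extracted with Trizol and made into libraries with a stranded total RNA kit, per the labels. The authors deposited 1 table of FPKM values for 30452 genes in 6 columns, which were matched to the samples by name. STAR and HTSeq are named in the submitters' processing notes without versions. The genome build, the annotation and the strand setting of counting are not given in the sources used here.

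Rows of 1 symbol were summed. Log2(FPKM + 0.1) of each gene whose mean FPKM was 0.5 or more (10942 genes) was fitted with limma 3.58.1 in R 4.3.3 (lmFit, eBayes with trend), with Benjamini-Hochberg adjustment over all genes tested and a threshold of 0.05. That mean was taken over all 6 samples, so a gene averaging below 0.5 in 1 group passed only through the other group. This holds for the list genes and for all genes tested alike. The fit was tested on simulated data for this comparison, with 10942 genes of which 200 were given a log2 change of 2, and it recovered 157 of these. That change was larger than the change of any member, and no shift over all genes was simulated. The share recovered therefore does not apply to the members. For single values the two-sided exact permutation test was used, and ratios were taken within a library. The FPKM steps gave whole fragment counts for 19438 of 19481 rows above 0 (99.8%, within 0.001 fragment), which were used for depth alone. The members rested on 52 to 3919 fragments per sample, a counting error of 13.9% to 1.6%. These errors cover counting only. The recovered genes held 8915768 to 11184247 fragments in sham and 11855875 to 15499732 in MI/RI. These totals leave out the rows without whole counts and are not library sizes. Relative depth from the same steps ran the other way, at 1 to 1.18 in sham and 0.873 to 0.935 in MI/RI.

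The members, the gene lists, the tests and the alternatives were chosen with earlier results of these data known. Named were all members with Errfi1, in each list at most 3 called genes with the largest positive and 3 with the largest negative difference, genes below 0.05 FPKM in every sample, and the 3 genes most like Nr3c1 and Fkbp5. Genes named beyond this rule were chosen after their values were seen. Some genes counted in the lists are not reported singly here. The reported fit had no replicate block. After subtraction of the group mean, samples with the same number correlated at 0.20, 0.12 and 0.12 over genes, so the numbers from the labels were also used as a block. Sham replicate 3 and MI/RI replicate 2 correlated as well, at 0.12. Promoter windows came from RefSeq (GRCr8). Alternatives were other pseudocounts and filters, TPM, rescaling without mitochondrially encoded mRNAs, median centring, quantile normalization, no trend, the block, the highest row of each symbol and leaving out each sample.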

Additional observations from a re-analysis of the deposited data

How the results depend on the processing

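The sum of FPKM differed between the groups, so the scaling decided many calls. Over all genes, 2790 rose and 805 fell on the deposited scale (77.6% of calls higher, median 0.29). On the TPM scale 504 fell (87.3%, median 0.48), after median centring 1554 fell (56.5%), after quantile normalization 1441 rose and 1559 fell (48%), and after rescaling without mitochondrially encoded mRNAs 793 rose and 2857 fell (21.7%, median −0.46). With a filter at a mean FPKM of 5, 166 fell (91.9%). Leaving out 1 sample gave 1528 to 2557 genes that rose and 309 to 881 that fell; 1528 rose and 359 fell without sham replicate 3, and 309 fell without sham replicate 2.

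The number of members that rose was 1 on the deposited scale, 2 on the TPM scale (Fkbp5 at 0.76, adjusted p = 0.041), 2 with the replicate block (Sgk1 at 0.99, adjusted p = 0.023), 0 when rescaled without mitochondrially encoded mRNAs (Zbtb16 at 1.06, adjusted p = 0.085) and 0 with the filter at 5, under which only 3 members were tested. The block changed no other call of a member. When rescaled without mitochondrially encoded mRNAs, Nr3c1 was −0.98, Fkbp5 −0.21, Hsd11b1 −0.64, Nr3c2 −0.00043 and Sgk1 0.21. Hsd11b1 was also −0.12 after median centring, −0.29 after quantile normalization and −0.019 without MI/RI replicate 1. Leaving out 1 sample gave −0.45 to −0.10 for Nr3c1, 0.58 to 0.86 for Nr3c2, −0.019 to 0.25 for Hsd11b1, 0.48 to 0.65 for Fkbp5, 1.36 to 2.30 for Zbtb16 and 0.42 to 1.33 for Sgk1. Of the list genes, 28 rose on the deposited scale, and 20 to 31 did under the alternatives, with 7 that fell when rescaled without mitochondrially encoded mRNAs. Errfi1 was 1.33 (adjusted p = 0.086) after quantile normalization. The counting error behind Fkbp5, 2.82% to 3.56% per sample, was below its spread between samples (10.6% to 11.2%). No other alternative changed the direction or the call of a member.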
